A study of Mus musculus with 2 samples.

Results

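Glutamate receptors and their auxiliary subunits were examined as a group of 31 genes among the 32285 features counted in single-nucleus RNA sequencing of the mouse preoptic area, the hypothalamic region to which ultrasound was delivered. The members were taken by gene symbol. They comprise 4 AMPA receptor subunits (Gria1 to Gria4), 5 kainate receptor subunits (Grik1 to Grik5), 7 NMDA receptor subunits (Grin1, Grin2a to Grin2d, Grin3a and Grin3b), the delta receptor Grid1, 6 metabotropic receptors (Grm2 to Grm5, Grm7 and Grm8), 6 auxiliary subunits of AMPA receptors (Cacng2 to Cacng5, Cacng7 and Cacng8) and 2 auxiliary subunits of kainate receptors (Neto1 and Neto2). All 31 were detected in both libraries.

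The study compared wild-type mice that received ultrasound (US+) with sham mice (US-), and both groups were 6 to 9 weeks old. Each group is 1 library of nuclei pooled from 4 mice, taken about 1 h after stimulation and sorted on DAPI and on NeuN, a protein of neuronal nuclei. With 1 library per group there is no replicate check and no test of the condition, so a difference between US+ and US- below compares these 2 libraries. Intervals are exact 95% intervals (Poisson for levels, conditional binomial for ratios) and cover counting error only.

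Ionotropic glutamate receptors are channels built of 4 subunits that open when glutamate binds, and the subunit mixture sets their kinetics, calcium permeability and block. AMPA receptors carry most fast excitatory current, NMDA receptors open only when the membrane is also depolarised, and kainate receptors act on both sides of the synapse. Metabotropic receptors are coupled to G proteins and adjust release and excitability more slowly. Auxiliary subunits are membrane proteins that travel with the channels and change their delivery to the synapse and their gating.

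A level is given as CPM, the share of a gene's UMIs (unique molecular identifiers, each a counted RNA molecule) among all UMIs summed over the nuclei of a set, scaled to a total of 1000000. Counts are of nuclear RNA from the 3′ end, so levels of 2 different genes are not on 1 scale and are not compared here. After filtering, 11040 US- nuclei with 98904011 UMIs and 9912 US+ nuclei with 84857570 UMIs were kept, with a median of 7664 and 7376 UMIs. The nuclei of 7 kinds of neuron were separated by marker genes and are called by them alone. They held 1092 and 327 nuclei (US- and US+) for Rarb/Drd1, 798 and 245 for Rarb/Drd2, 437 and 291 for Lhx6/Sox6, 1176 and 690 for Lhx8, 571 and 879 for Esr1, 47 and 39 for Skor2/Slc17a6 and 124 and 124 for Tcf7l2/Slc17a6. The Rarb/Drd1 type made up 9.89% of kept US- nuclei and 3.30% of kept US+ nuclei, and Rarb/Drd2 7.23% and 2.47%, so a member that is high in those types is counted from fewer such nuclei in the US+ library. Nuclei that met the rules of several types (720 and 458, with a median of 13087 and 13217 UMIs) were left out of all types. Only 19 barcodes of kept nuclei were shared by the libraries.

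Genes of the inhibitory transmitter differed between the types with and without Slc17a6 as a marker. The summed level of Gad1, Gad2 and Slc32a1 lay between 357 and 465 CPM in the 5 types without Slc17a6 as a marker, and between 66.3 and 132 CPM in the 2 types with it. Ppp1r1b, a marker of striatal-type projection neurons that the rule did not use, was at 19.1 to 41.8 CPM in the Rarb types. It was at 0 to 5.10 CPM in the other 5, which bounds free RNA of that gene alone. Other such markers were less confined to the Rarb types. Pde10a was at 1514 to 1814 CPM there and 352 to 775 in the other 5, Rgs9 at 246 to 421 and 39.1 to 105. Adcy5 was at 192 to 355 and 54.7 to 99.8 CPM. The part of free RNA in these levels was not tested. The summed astrocyte markers were at 22.7 and 43.9 CPM over all kept US- and US+ nuclei.

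RNA editing is a difference between receptors that a 3′ count leaves out. In Gria2, Grik1 and Grik2 an adenosine of 1 glutamine codon in the pore loop, the Q/R site, can be changed after transcription, and the edited AMPA channel passes almost no calcium. The codon lies far upstream of the counted end, so edited and unedited transcripts were counted alike. The codon (capitals) is shown with its flanks, 5′ to 3′ on the coding strand, from GENCODE M21 transcripts (build GRCm38). For the AMPA genes the stretch lies within exon 11 (exon 12 in Gria4).
Gria1, chr11:57243082-57243111, plus strand: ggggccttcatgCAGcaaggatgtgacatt
Gria2, chr3:80706896-80706925, minus strand: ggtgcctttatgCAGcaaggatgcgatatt
Gria3, chrX:41610253-41610282, plus strand: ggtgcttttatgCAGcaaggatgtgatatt
Gria4, chr9:4464122-4464151, minus strand: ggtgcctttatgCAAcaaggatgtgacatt
Grik1, codon at chr16:87940542-87940544, minus strand, flank across an exon junction: ggagctctcatgCAGcaaggatcggagctg
Grik2, codon at chr10:49244329-49244331, minus strand, flank across an exon junction: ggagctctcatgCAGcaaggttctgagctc
The codon was CAG in 5 of these genes and CAA in Gria4. The reference therefore encodes the same amino acid in all 6, and the levels of Gria1 and Gria4 relative to Gria2 below are ratios of RNA, not of editing.

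How the members differed between types was asked first. For each gene and type, the CPM was divided by the mean CPM of the other 6 types of the same library, and a pair of gene and type was called where the ratio was at least 2, or at most 0.5, in both libraries. Of the 31 members, 28 had the 50 UMIs in typed nuclei of each library that the call required, and Grin2c, Grin3b and Grm2 did not. In the types, 6 of 196 member-type pairs were called higher, where 1.54% of all gene-type pairs were, and 11 were called lower, where 3.9% were. In all, 9 of the 28 members had a call in at least 1 type, where 18.7% of the 15030 genes tested had one. Of these calls, 7 were in Rarb/Drd1 nuclei, 4 higher and 3 lower of 28 members, where 2.3% and 6.69% of all genes were called. The median ratio of the members in Rarb/Drd1 was 1.15, beside 0.855 over all genes, and in Rarb/Drd2 it was 1.23, beside 0.853. In Rarb/Drd2 nuclei 1 of 28 members was called higher and 3 lower, where 2.02% and 4.35% of all genes were. The other 5 types held 1 higher and 5 lower calls. Esr1 held 1 of each (1.18% and 2.1% of all genes), and Lhx6/Sox6 (1.32% and 3.49%), Lhx8 (0.958% and 2.28%), Skor2/Slc17a6 (1.6% and 5.48%) and Tcf7l2/Slc17a6 (1.43% and 2.94%) held 0 higher and 1 lower each. In the other 5 types the medians were the other way. For the members and all genes they were 0.859 and 1.01 in Lhx8, 0.885 and 0.964 in Lhx6/Sox6 and 0.930 and 1.07 in Esr1. In Skor2/Slc17a6 they were 0.984 and 1.02, and in Tcf7l2/Slc17a6 0.892 and 1.01. The ratios of these 5 types are taken against a mean that includes the Rarb types. With nuclei of several types kept in each of their types, 4 of the 6 higher and 3 of the 11 lower calls remained. Grin2a and Grm4 in Rarb/Drd1 were the 2 higher calls lost. The lower calls lost were Grik1, Grin3a and Grm8 in Rarb/Drd2 and Grin2d in Rarb/Drd1. Lost as well were Cacng3 in Esr1, Grm4 in Lhx6/Sox6, Grm8 in Lhx8 and Neto1 in Tcf7l2/Slc17a6.

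**Figure D1:**
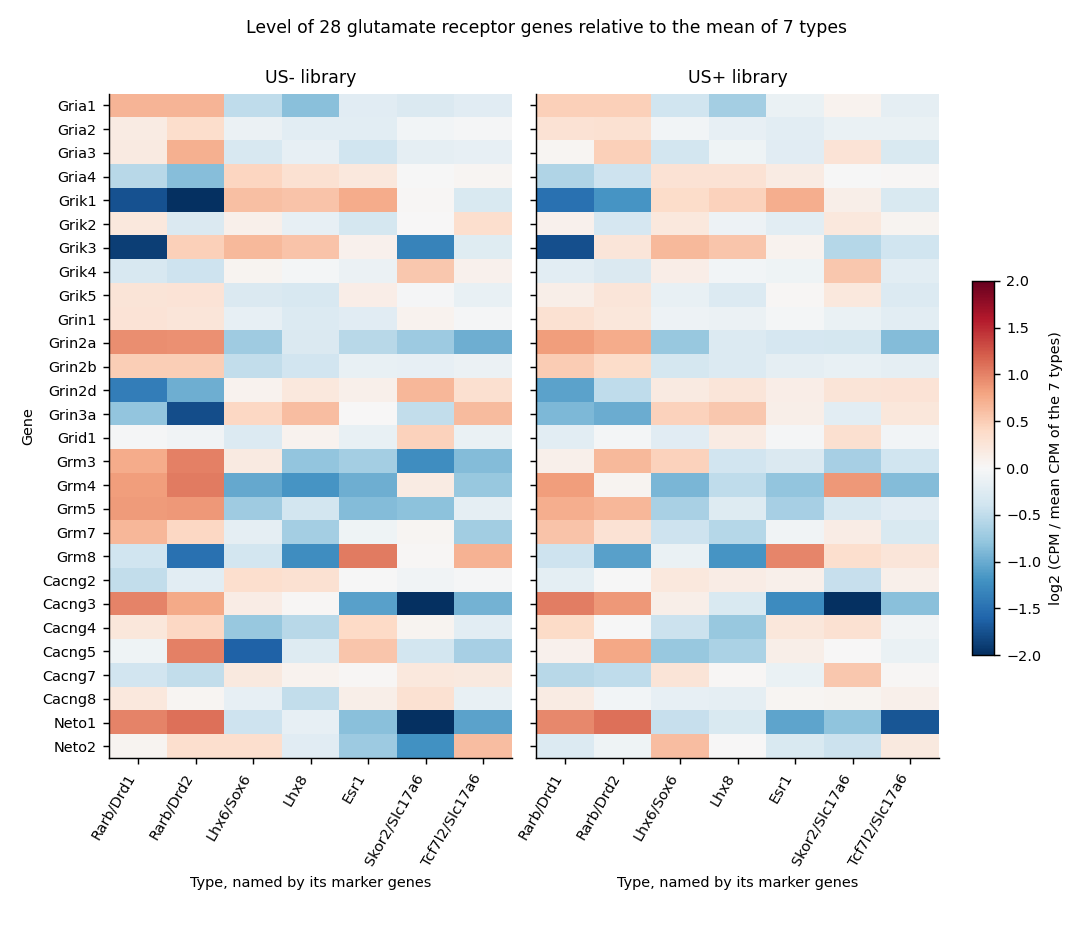
Level of the 28 members with enough UMIs in each type (columns) of the US- library (left) and the US+ library (right), as the log2 ratio of the CPM to the mean CPM of the 7 types, with red above and blue below that mean and the scale ending at 2 in each direction. The pattern of the 2 panels is much alike, with Grin2a, Grm5, Cacng3 and Neto1 red in the 2 Rarb types and Grik1, Grin2d and Grin3a blue there.

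Among AMPA receptor subunits, none of the 4 was called in any type. Gria1, whose product is delivered to synapses with activity, was highest in the 2 Rarb types, at 1663 and 1501 CPM (US- and US+) in Rarb/Drd1 and 1668 and 1508 in Rarb/Drd2. Its lowest level was in Lhx8 nuclei, at 580.3 and 677 CPM. The intervals of the 2 Rarb types overlapped with each other and lay above all others, and the ratio of Rarb/Drd2 to Lhx8 was 2.87 (95% 2.79 to 2.96) in the US- library and 2.23 (95% 2.14 to 2.32) in the US+ library. Gria2, which makes the channel impermeable to calcium once edited, was the most even of the 4, with 1276 to 1945 CPM over all types and libraries. Gria3 ranged from 361 CPM in US- Esr1 nuclei to 773 CPM in US- Rarb/Drd2 nuclei. Gria4, a subunit of fast channels, was lowest in the types where Gria1 was highest, Rarb/Drd1 (676 and 676 CPM) and Rarb/Drd2 (549 and 772 CPM) and highest in Lhx6/Sox6 (1331 and 1253 CPM), with Lhx8 (1218 and 1249 CPM) next.

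The contrast of Gria1 and Gria4 was seen also in their UMIs relative to those of Gria2. Gria1 over Gria2 was 0.976 and 0.831 in Rarb/Drd1 and 0.857 and 0.834 in Rarb/Drd2, against 0.444 and 0.513 in Lhx8 and 0.521 and 0.581 in Lhx6/Sox6. Gria4 over Gria2 was 0.397 and 0.374 in Rarb/Drd1 and 0.282 and 0.427 in Rarb/Drd2, against 0.933 and 0.947 in Lhx8 and 0.949 and 0.883 in Lhx6/Sox6. In each library the 2 Rarb types had the lowest Gria4 over Gria2. The summed level of the 4 AMPA genes differed less, from 3528 CPM in US- Lhx8 nuclei to 4936 CPM in US- Rarb/Drd2 nuclei.

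Of the kainate receptor subunits, Grik1, a principal subunit, was called lower in both Rarb types, with 0.267 and 0.322 (US- and US+) of the other types' mean in Rarb/Drd1 and 0.177 and 0.404 in Rarb/Drd2. Grik1 stood at a CPM of 114 in Rarb/Drd1 nuclei, 76.8 in Rarb/Drd2, 579 in Lhx6/Sox6, 572 in Lhx8, 642 in Esr1, 389 in Skor2/Slc17a6 and 310.3 in Tcf7l2/Slc17a6 in the US- library. In US+ nuclei Grik1 stood at 148, 183, 532, 568, 684, 447 and 333 CPM in the same order of types. Esr1 nuclei were thus the highest in both libraries, and their ratio to Rarb/Drd2 was 8.36 (95% 7.67 to 9.12) in the US- library and 3.74 (95% 3.42 to 4.10) in the US+ library. The 2 libraries differed in which Rarb type was lower, since the US+ level in Rarb/Drd2 was above that in Rarb/Drd1. The call of Grik1 in Rarb/Drd2 was lost with nuclei of several types kept.

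Grik3, a principal subunit of low glutamate affinity, separated the 2 Rarb types. Grik3 stood at a CPM of 35.7 in Rarb/Drd1 nuclei, 184 in Rarb/Drd2, 207 in Lhx6/Sox6, 196 in Lhx8, 140.2 in Esr1, 52.5 in Skor2/Slc17a6 and 111 in Tcf7l2/Slc17a6 in the US- library. In US+ nuclei Grik3 stood at 39.5, 159, 211, 196, 141, 89.8 and 102 CPM in the same order of types. It was called lower in Rarb/Drd1 (0.240 and 0.263 of the other types' mean), while Rarb/Drd2 was among the 3 highest types. The ratio of Lhx6/Sox6, the highest type, to Rarb/Drd1 was 5.81 (95% 5.15 to 6.56) in the US- library and 5.35 (95% 4.44 to 6.48) in the US+ library. The level in Skor2/Slc17a6 rests on 25 and 36 UMIs.

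Grik2, the most studied kainate subunit of forebrain, ranged only from 1627 to 2892 CPM, and 3 types overlapped its highest. Grik2 over Grik1 was 23.2 and 14.8 in Rarb/Drd1 and 24.3 and 8.91 in Rarb/Drd2, and 2.78 and 2.58 in Esr1 nuclei, where it was lowest in both libraries. Grik4 and Grik5, high-affinity subunits that need a principal subunit to form a channel, had no call. Grik4 was highest in Skor2/Slc17a6 and lowest in Rarb/Drd2 (368 and 364 against 190.4 and 205 CPM), and Grik5 was highest in Rarb/Drd2 and lowest in Lhx8 (111 and 105 against 73.5 and 73.2 CPM). Grik2 shares its strand with 2 overlapping genes, Gm26543 and Gm47018, so reads in the overlap cannot be told apart.

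NMDA receptor subunits showed 3 calls, all in Rarb nuclei. Grin1, the subunit every NMDA receptor needs, had the smallest spread of the 28 members, with 244 to 362 CPM and a ratio of 1.39 between its highest and lowest type. Grin2a, the subunit that takes over in mature synapses, was called higher in Rarb/Drd1, at 2.24 and 2.06 times the other types. That call was lost where the reference was all other kept nuclei and with nuclei of several types kept. Grin2a stood at a CPM of 869 in Rarb/Drd1 nuclei, 856 in Rarb/Drd2, 279 in Lhx6/Sox6, 373 in Lhx8, 309.7 in Esr1, 275 in Skor2/Slc17a6 and 233 in Tcf7l2/Slc17a6 in the US- library. In US+ nuclei Grin2a stood at 764, 713, 254, 354, 340.0, 334 and 234 CPM in the same order of types. Rarb/Drd1 and Rarb/Drd2 overlapped, and no other type reached them. Tcf7l2/Slc17a6 nuclei were lowest, and the ratio of Rarb/Drd1 to them was 3.73 (95% 3.31 to 4.22) in the US- library and 3.26 (95% 2.88 to 3.70) in the US+ library.

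Grin2b, the subunit of slow, early NMDA receptors, was also highest in Rarb/Drd1 but by less, with 1516 and 1516 CPM against 766 and 836 in Lhx6/Sox6, its lowest type. Grin2b over Grin2a was lowest in the Rarb types, at 1.74 and 1.98 in Rarb/Drd1 and 1.77 and 1.91 in Rarb/Drd2. It was 2.23 and 2.48 in Lhx8, 2.75 and 3.29 in Lhx6/Sox6, 3.16 and 2.76 in Esr1 and 4.30 and 4.00 in Tcf7l2/Slc17a6, the highest type. The summed NMDA level was 2854 and 2753 CPM in Rarb/Drd1 and 1575 and 1647 in Lhx6/Sox6.

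Grin2d and Grin3a went the other way. Grin2d, a subunit with weak magnesium block, was called lower in Rarb/Drd1, at 0.347 and 0.436 of the other types, with 11.7 and 12.9 CPM there against 35.5 and 32.0 in Lhx8 and 48.3 and 32.4 in Skor2/Slc17a6. That call was lost with nuclei of several types kept, with TMM scaling and with 5 CPM added. Grin3a, whose product lowers calcium entry, was called lower in Rarb/Drd2 (0.261 and 0.467 of the other types). The Grin3a call was lost with nuclei of several types kept and with TMM scaling. Grin3a stood at a CPM of 100.3 in Rarb/Drd1 nuclei, 50.8 in Rarb/Drd2, 231 in Lhx6/Sox6, 267 in Lhx8, 174 in Esr1, 124 in Skor2/Slc17a6 and 270.4 in Tcf7l2/Slc17a6 in the US- library. In US+ nuclei Grin3a stood at 97.5, 91.8, 251, 265, 197, 157 and 212 CPM in the same order of types. Lhx8 and Tcf7l2/Slc17a6 overlapped at the top, and the ratio of Lhx8 to Rarb/Drd2 was 5.26 (95% 4.74 to 5.85) in the US- library and 2.89 (95% 2.54 to 3.30) in the US+ library. Grin3a over Grin1 was 0.281 and 0.270 in Rarb/Drd1 and 0.145 and 0.268 in Rarb/Drd2, against 1.09 and 0.977 in Lhx8. Ppp3r2 overlaps Grin3a on the same strand, so reads shared by both genes cannot be separated.

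Grin2c, a subunit best known from cerebellar granule cells, and Grin3b, known from motor neurons, were near the limit of detection. Grin2c had 159 and 197 UMIs over all kept nuclei, of which 31 and 28 were in Lhx8 nuclei, while US+ Rarb/Drd2 nuclei had 0 UMIs, which allows up to 1.04 CPM. Grin3b had 78 and 46 UMIs. Differences of Grin3b between types were not detectable at this depth. Grid1, a delta receptor that joins synapses through cerebellins and does not open to glutamate, was highest in Skor2/Slc17a6 and lowest in Lhx6/Sox6, with 1047 and 981 against 631 and 678 CPM.

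**Figure D2:**
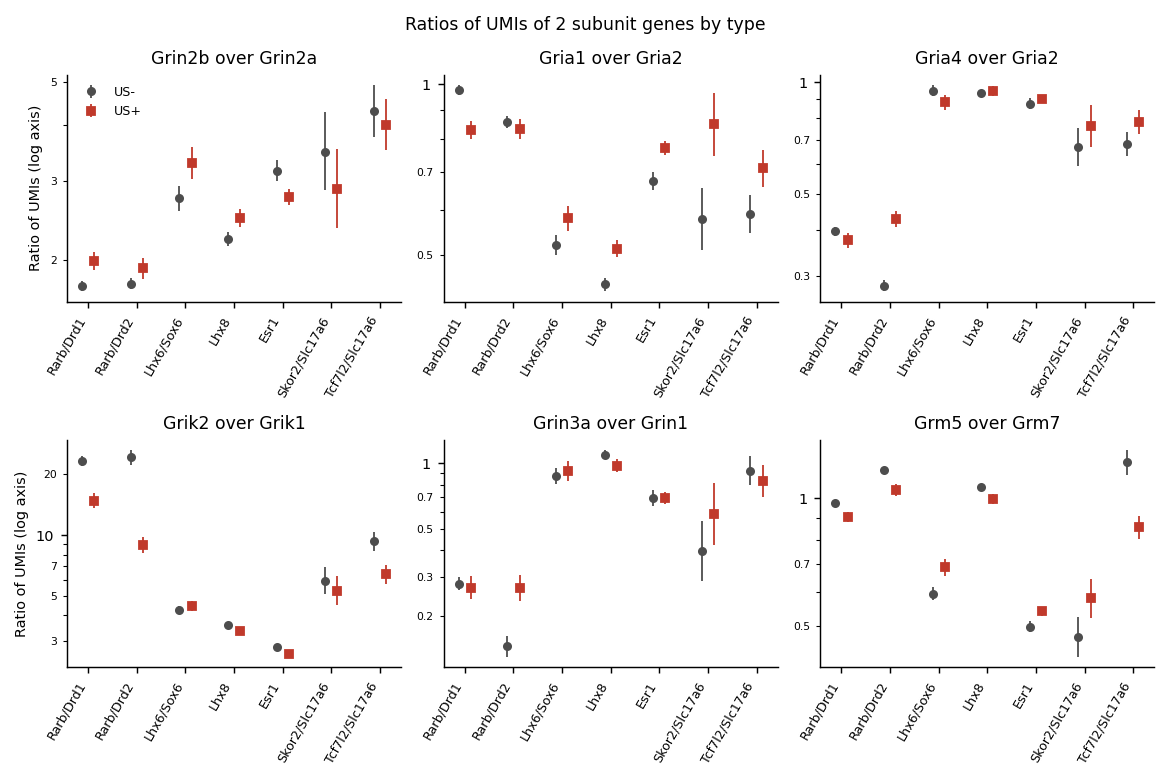
Ratio of the UMIs of 2 genes (y, log axis) in each type (x) for 6 pairs, with US- as grey circles, US+ as red squares and bars for 95% counting intervals. The Rarb types have the lowest Grin2b over Grin2a and Gria4 over Gria2 and the highest Grik2 over Grik1, and the 2 libraries part most for Grik2 over Grik1 in Rarb/Drd2 (24.3 and 8.91).

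The summed level of the metabotropic receptors was 7704 and 6748 CPM in Rarb/Drd1 and 7205 and 6105 in Rarb/Drd2 against 3177 and 3339.7 in Lhx8. Grm5, a receptor coupled to phospholipase C, stood at 3371 and 2904 CPM in Rarb/Drd1 and 3399.8 and 2784 in Rarb/Drd2, against 1027 and 1114 in Esr1, its lowest type. Grm7, a presynaptic receptor of low glutamate affinity, stood at 3448 and 3215 CPM in Rarb/Drd1 and 1370.0 and 1470.0 in Lhx8. Neither gene reached the 2-fold call in both libraries. Grm5 over Grm7 was 0.499 and 0.541 in Esr1 nuclei and 0.596 and 0.688 in Lhx6/Sox6, and 1.17 and 1.05 in Rarb/Drd2 nuclei. In Tcf7l2/Slc17a6 nuclei it was 1.22 and 0.854.

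Grm8, a presynaptic receptor of high affinity that inhibits adenylyl cyclase, had the clearest pattern of this class outside Rarb nuclei. Grm8 stood at a CPM of 235 in Rarb/Drd1 nuclei, 111 in Rarb/Drd2, 241 in Lhx6/Sox6, 131 in Lhx8, 644 in Esr1, 317 in Skor2/Slc17a6 and 503 in Tcf7l2/Slc17a6 in the US- library. In US+ nuclei Grm8 stood at 278, 174, 338, 163, 730.0, 469 and 439 CPM in the same order of types. It was called higher in Esr1 nuclei, at 2.51 and 2.35 times the other types, the only higher call of a member outside the Rarb types. It was called lower in Lhx8 (0.385 and 0.402) and in Rarb/Drd2 (0.321 and 0.432). Both lower calls were lost with nuclei of several types kept, and that in Rarb/Drd2 also with TMM scaling. The ratio of Esr1 to Rarb/Drd2 was 5.81 (95% 5.40 to 6.26) in the US- library and 4.20 (95% 3.83 to 4.60) in the US+ library.

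Grm3 and Grm4 inhibit adenylyl cyclase as well. Grm3 stood at a CPM of 605 in Rarb/Drd1 nuclei, 726 in Rarb/Drd2, 406 in Lhx6/Sox6, 209 in Lhx8, 225 in Esr1, 151 in Skor2/Slc17a6 and 196 in Tcf7l2/Slc17a6 in the US- library. In US+ nuclei Grm3 stood at 323, 472, 415, 230.5, 246, 189.6 and 227 CPM in the same order of types. The order of types was led by the Rarb types in the US- library, whereas US+ Rarb/Drd1 nuclei lay below Lhx6/Sox6 nuclei. Grm3 had no call. Grm4 stood at a CPM of 43.8 in Rarb/Drd1 nuclei, 50.5 in Rarb/Drd2, 12.1 in Lhx6/Sox6, 10.8 in Lhx8, 12.4 in Esr1, 27.3 in Skor2/Slc17a6 and 14.5 in Tcf7l2/Slc17a6 in the US- library. In US+ nuclei Grm4 stood at 26.9, 15.7, 7.97, 10.5, 8.75, 27.4 and 8.22 CPM in the same order of types. Grm4 was called higher in Rarb/Drd1 (2.06 and 2.05) and lower in Lhx6/Sox6 (0.455 and 0.490). The higher call was lost with 5 CPM added to both sides, with nuclei of several types kept and under both stricter marker rules. The lower call was lost with at least 2 UMIs of each marker, with nuclei of several types kept, with at least 4000 UMIs per nucleus, with 5 CPM added and with all other kept nuclei as the reference. Rarb/Drd2 had the highest US- level of Grm4 but not the highest US+ level, so no call was made there, and the Skor2/Slc17a6 level rests on 13 and 11 UMIs. Grm2 had 162 and 120 UMIs in all kept nuclei, and its types could not be ordered.

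Of the AMPA auxiliary subunits, Cacng3 had the largest ratio between types of any member with enough UMIs when CPM was averaged over the 2 libraries. Cacng3 stood at a CPM of 186 in Rarb/Drd1 nuclei, 158 in Rarb/Drd2, 104 in Lhx6/Sox6, 95.8 in Lhx8, 44.2 in Esr1, 18.9 in Skor2/Slc17a6 and 48.5 in Tcf7l2/Slc17a6 in the US- library. In US+ nuclei Cacng3 stood at 206, 185, 109.8, 81.9, 42.5, 24.9 and 56.7 CPM in the same order of types. Rarb/Drd1 was highest in both libraries and Skor2/Slc17a6 lowest, with a ratio of 9.85 (95% 5.18 to 21.6) in the US- library and 8.26 (95% 4.47 to 17.3) in the US+ library. In the US- library alone the ratio of Neto1 was larger. The lowest level rests on 9 and 10 UMIs. Cacng3 was called higher in Rarb/Drd1 (2.38 and 2.47) and lower in Esr1 (0.433 and 0.383) and Skor2/Slc17a6 (0.178 and 0.219). The calls in Rarb/Drd1 and Esr1 were lost where the reference was all other kept nuclei in place of the other types. The call in Esr1 was lost also with nuclei of several types kept. Cacng2, or stargazin, the first of these proteins to be described, had the reverse tendency with no call, at 103 and 86.9 CPM in Lhx6/Sox6 and 57.7 and 65.8 in Rarb/Drd1.

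Cacng5 stood at a CPM of 7.65 in Rarb/Drd1 nuclei, 16.3 in Rarb/Drd2, 2.63 in Lhx6/Sox6, 6.77 in Lhx8, 11.9 in Esr1, 6.31 in Skor2/Slc17a6 and 5.10 in Tcf7l2/Slc17a6 in the US- library. In US+ nuclei Cacng5 stood at 10.6, 17.0, 5.89, 6.41, 10.8, 9.98 and 9.04 CPM in the same order of types. Rarb/Drd2 was the highest type of Cacng5 in both libraries and Lhx6/Sox6 the lowest, at 6.19 (95% 3.42 to 12.3) in the US- library and 2.89 (95% 1.64 to 5.36) in the US+ library, but no call was made. In 3 types its counts were small, with 3 and 4 UMIs in Skor2/Slc17a6, 6 and 11 in Tcf7l2/Slc17a6 and 12 and 17 in Lhx6/Sox6. Cacng4, Cacng7 and Cacng8 had no call and ranged from 25.1 to 59.3, 40.9 to 87.3 and 51.9 to 90.4 CPM. The highest type of Cacng8 overlapped with 5 others, so its order is not resolved.

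Of the kainate auxiliary subunits, Neto1, which also binds NMDA receptors, was called higher in both Rarb types, the only member with 2 such calls. Neto1 stood at a CPM of 481 in Rarb/Drd1 nuclei, 524 in Rarb/Drd2, 183 in Lhx6/Sox6, 216 in Lhx8, 136 in Esr1, 44.1 in Skor2/Slc17a6 and 116 in Tcf7l2/Slc17a6 in the US- library. In US+ nuclei Neto1 stood at 435, 476, 162, 181, 107, 127 and 68.2 CPM in the same order of types. The ratio to the other types was 2.37 and 2.33 in Rarb/Drd1 and 2.67 and 2.64 in Rarb/Drd2. It was 0.438 and 0.275 in Tcf7l2/Slc17a6, where Neto1 was called lower. That lower call was lost with nuclei of several types kept. Rarb/Drd2 stood above Skor2/Slc17a6 by a ratio of 11.9 (95% 7.75 to 19.2) in the US- library and 3.74 (95% 2.83 to 5.05) in the US+ library. Neto2 had another order, with its highest mean in Lhx6/Sox6 (136 and 129 CPM), its lowest in Skor2/Slc17a6 (46.2 and 62.4 CPM) and no call. In the Rarb types, then, Neto1 was high where the principal subunit Grik1 was low.

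**Figure D3:**
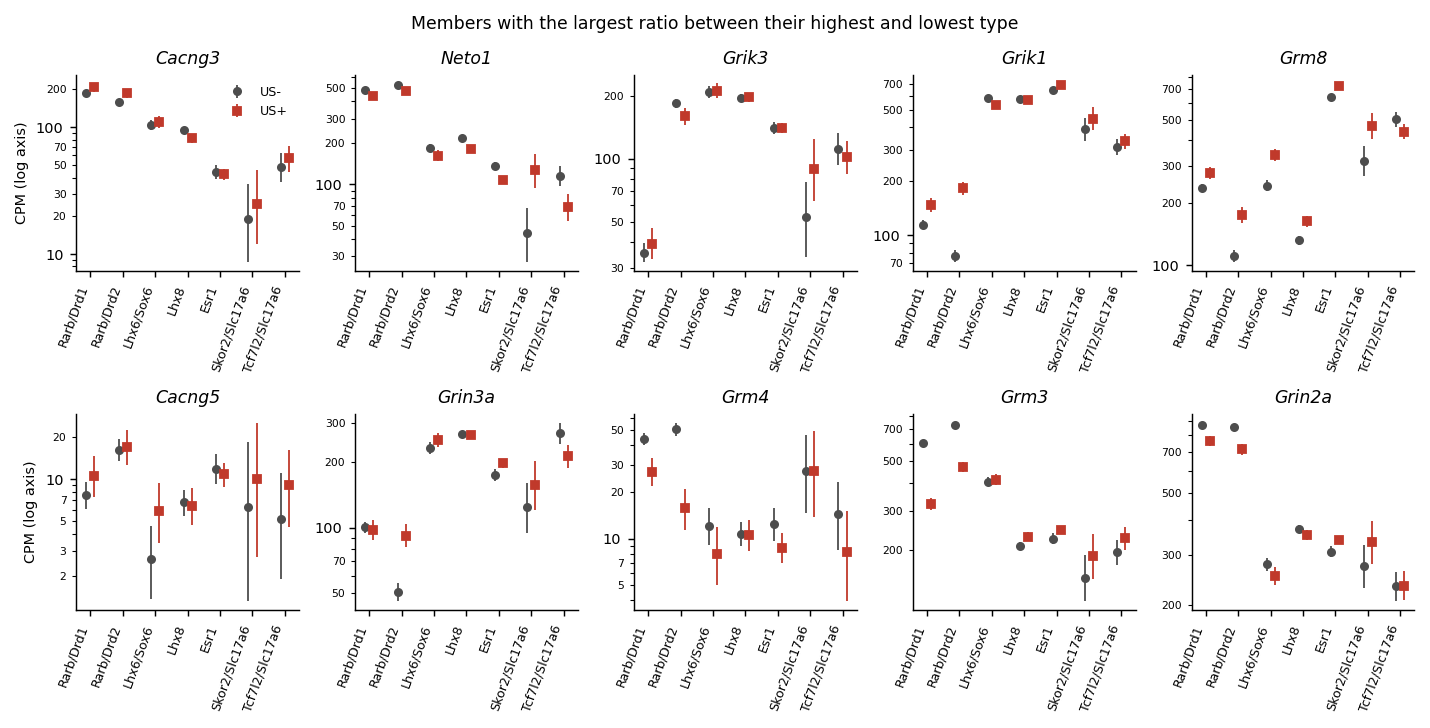
CPM (y, log axis that differs between panels) in each type (x) for the 10 members with the largest ratio between highest and lowest type, with US- as grey circles, US+ as red squares and bars for 95% Poisson intervals. Cacng3, Neto1 and Grin2a are highest in the Rarb types, Grik1, Grik3 and Grin3a are lowest in 1 of them, and Grm8 is highest in Esr1 nuclei.

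The levels of the 2 libraries over all kept nuclei were compared next, with a ratio over 1.5 or under its inverse taken as a call. No member was called higher in US+, where 7.67% of 20122 genes were, and 2 of 31 were called lower, where 3.36% were. The median ratio of the members was 0.924, beside 1.04 over all genes. Grm4 stood at 23.3 and 12.1 CPM in US- and US+ nuclei, a ratio of 0.521 (95% 0.484 to 0.561). Neto1 stood at 253 and 155 CPM, a ratio of 0.610 (95% 0.597 to 0.623). Both genes were highest in Rarb types in the US- library, and those types were a smaller share of the US+ library.

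The comparison was therefore repeated with each of the 7 types given equal weight. Neto1 was then at 0.916 and lost its call, Grm4 was at 0.615 and kept it, and Grm2 came below the limit (0.502) on few UMIs, so that 2 members were again lower, where 4.92% of all genes were, and 0 higher, where 5.89% were. The median of the members was 0.967 in that comparison, beside 0.992 over all genes. With Rarb/Drd1 and Rarb/Drd2 nuclei left out instead, Neto1 was at 0.663 and Grm4 at 0.634, and both remained called, where 2.64% of all genes were. The nuclei of no type, 55.0% and 69.2% of the kept nuclei, enter this second comparison but not the first. So do the nuclei that met the rules of several types (720 and 458), including any that met a Rarb rule along with another.

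Other members at the low end were Cacng3 (104 and 73.7 CPM, ratio 0.709, 95% 0.687 to 0.732) and Grin3b (0.789 and 0.542 CPM, ratio 0.687, 95% 0.467 to 1.00). With equal weight of types Cacng3 was at 1.08, on the other side of 1. Neto2 was at 0.707 (95% 0.685 to 0.730) and Grm3 at 0.725 (95% 0.713 to 0.737). At the high end Grin2c stood at 1.61 and 2.32 CPM (1.44, 95% 1.17 to 1.79) and Grm8 at 284 and 364 CPM (1.28, 95% 1.26 to 1.30). Cacng5 stood at 11.2 and 12.9 CPM (1.16, 95% 1.06 to 1.26) and Grik1 at 389 and 446 CPM (1.15, 95% 1.13 to 1.16). Grm8 and Grik1 were highest in Esr1 nuclei, whose share was 5.17% of the US- and 8.87% of the US+ library, and with equal weight of types their ratios were 1.19 and 1.08.

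Among the AMPA and NMDA subunits, Gria2 was at a ratio of 0.946 (95% 0.939 to 0.954), Grin1 at 1.03 (95% 1.01 to 1.05) and Grin2b at 0.923 (95% 0.914 to 0.931). Grm5 was at 0.787 (95% 0.781 to 0.792) and Grin2a at 0.756 (95% 0.745 to 0.766), and with equal weight of types they were at 0.938 and 0.937.

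**Figure D4:**
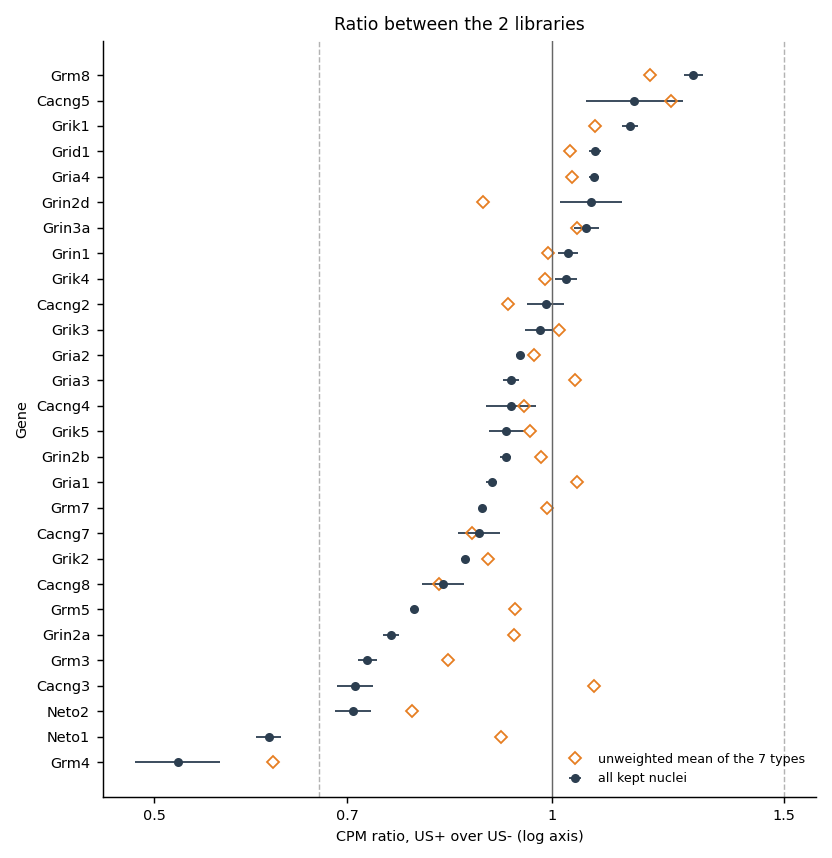
Ratio of the CPM in the US+ library to that in the US- library (x, log axis) for the 28 members with enough UMIs in the types (y, ordered by ratio), over all kept nuclei (filled circles, bars for 95% counting intervals) and as the unweighted mean of the 7 types (open diamonds), with dashed lines at the limits of a call. Grm4 and Neto1 lie below the lower limit over all nuclei, and the diamonds of Neto1, Cacng3, Grin2a and Grm5 lie nearer to 1 than their circles.

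Within types, 188 pairs of member and type had the 50 UMIs over both libraries that a call required. In US+, 6 were called higher, where 4.64% of all gene-type pairs were, and 9 were called lower, where 5.17% were. No member was called in Esr1 nuclei, where 3.46% of all genes were called higher and 2.02% lower. In Lhx8 nuclei the only call was Grin2c, higher at 1.61 from 31 and 28 UMIs, where 2.59% of all genes were called higher and 2.42% lower.

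Of the 15 calls, 9 were in the Rarb types. In Rarb/Drd1, 0 of 28 members were called higher, where 6.29% of all genes were, and 3 lower, where 9.71% were. Grm3 stood at 605 and 323 CPM (0.534, 95% 0.501 to 0.569), Grm4 at 43.8 and 26.9 CPM (0.613, 95% 0.486 to 0.767) and Neto2 at 112 and 69.2 CPM (0.619, 95% 0.536 to 0.711). In Rarb/Drd2 the same 3 genes were called lower, where 8.92% of all genes were. Grm3 stood there at 726 and 472 CPM (0.651, 95% 0.613 to 0.691), Grm4 at 50.5 and 15.7 CPM (0.310, 95% 0.222 to 0.422) and Neto2 at 135 and 79.3 CPM (0.588, 95% 0.508 to 0.679).

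In Rarb/Drd2, 3 members were called higher, where 7.84% of all genes were. Grik1 stood at 76.8 and 183 CPM (2.38, 95% 2.11 to 2.68), Grin3a at 50.8 and 91.8 CPM (1.81, 95% 1.54 to 2.12) and Grm8 at 111 and 174 CPM (1.57, 95% 1.40 to 1.75). All 3 were among the members that the US- library showed to be low in Rarb/Drd2 relative to other types. That US- level is also the denominator of the called ratios, so this is not a separate observation. In Rarb/Drd1 the same genes stood at 1.29, 0.972 and 1.18.

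Several markers of the Rarb types differed between the libraries. From US- to US+, Rarb stood at 1476 and 1121 CPM in Rarb/Drd1 and 1379 and 974 in Rarb/Drd2, Drd2 at 326 and 193 in Rarb/Drd2, and Ppp1r1b at 41.8 and 19.1 in Rarb/Drd2. Adcy5 stood at 352 and 246 CPM in Rarb/Drd1 and 355 and 192 in Rarb/Drd2. Rgs9 stood at 351 and 287 CPM in Rarb/Drd1 and 421 and 246 in Rarb/Drd2. Others differed less, with Pde10a at 1514 and 1528 CPM in Rarb/Drd1 and 1814 and 1522 in Rarb/Drd2. In Rarb/Drd1, Ppp1r1b stood at 30.8 and 27.7 CPM and Drd1 at 168 and 142. Snap25, a check gene for neurons, stood higher in US+, at 682 and 1093 CPM in Rarb/Drd1 and 676 and 939 in Rarb/Drd2. Slc17a6, which these neurons should lack, stood at 4.35 and 14 CPM in Rarb/Drd1 and 6.19 and 14.6 in Rarb/Drd2. The summed early genes Fos, Fosb, Nr4a1, Egr1 and Dusp1 stood at 28.3 and 227 CPM in Rarb/Drd1 and 27.2 and 152 in Rarb/Drd2, against at most 76.9 in the other 5 types. The part of these markers in the members' ratios was not tested.

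Under a stricter rule, added after seeing the data, nuclei had at least 5 UMIs of Rarb and 2 of Drd1 or Drd2, which left 382 and 91 Rarb/Drd1 and 476 and 105 Rarb/Drd2 nuclei. In Rarb/Drd2 the ratios were then 1.71 for Grik1, 1.80 for Grin3a, 1.99 for Grm8, 0.352 for Grm4 and 0.520 for Neto2, all still called, and 0.705 for Grm3, which was not. In Rarb/Drd1 they were 0.511 for Grm3 and 0.504 for Grm4, both still called, and 0.736 for Neto2, which was not. Grik3 in Rarb/Drd1 (1.72) passed the upper limit and Cacng7 in Rarb/Drd1 (0.638) the lower one. Marker differences between the libraries remained under this rule. From US- to US+, Drd2 stood at 408 and 273 CPM, Ppp1r1b at 44.1 and 22.9 and Slc17a6 at 4.94 and 8.57 in Rarb/Drd2. In Rarb/Drd1 Slc17a6 stood at 2.45 and 9.10 CPM, whereas Ppp1r1b (33.0 and 34.7) differed little. Other settings removed some of the main calls between libraries. Without the 5% of nuclei with most UMIs, Grm4 in Rarb/Drd1 was lost. With each nucleus given equal weight (mean UMIs per 10000), Grm4 in Rarb/Drd1 and Grm3 in Rarb/Drd2 were lost. With nuclei of several types kept, the higher call of Grin3a in Rarb/Drd2 was lost.

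**Figure D5:**
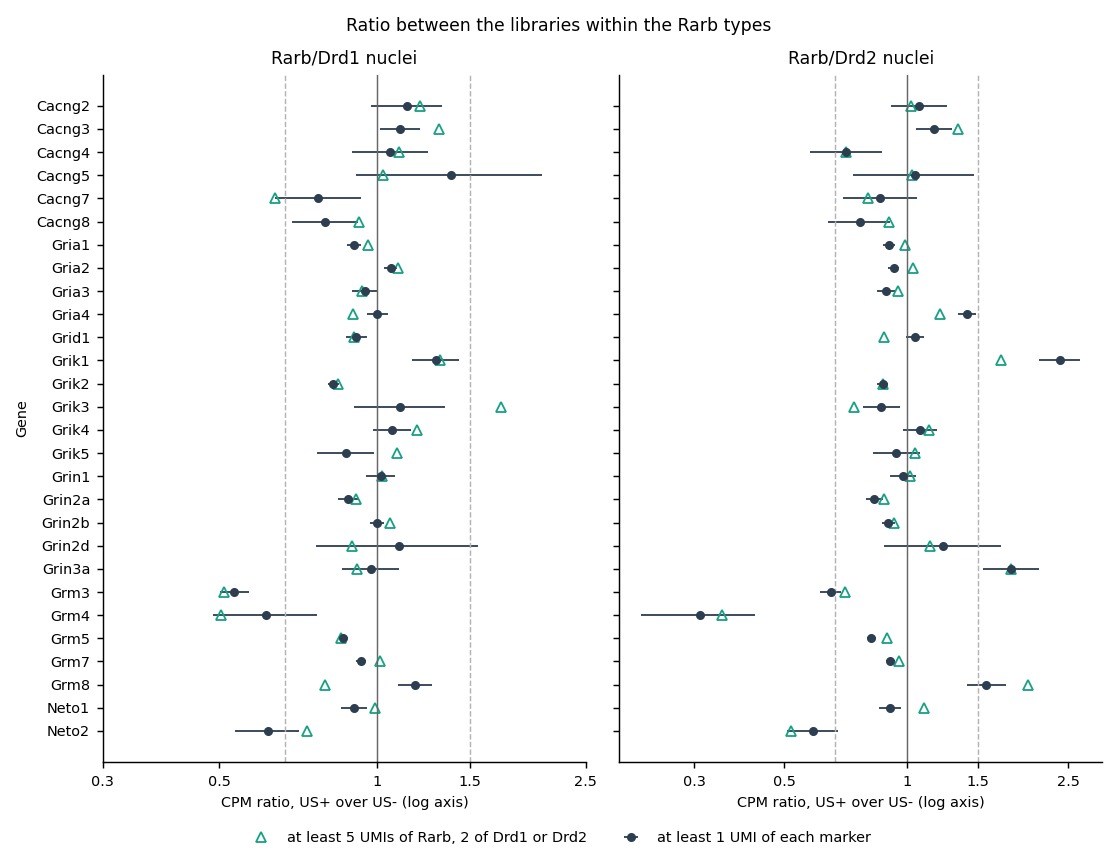
Ratio of the CPM in the US+ library to that in the US- library (x, log axis) within Rarb/Drd1 (left) and Rarb/Drd2 nuclei (right) for 28 members (y), with circles and 95% counting intervals for nuclei with at least 1 UMI of each marker, triangles for the stricter rule and dashed lines at the limits of a call. The circles of Grm3, Grm4 and Neto2 lie left of the lower limit in both panels. The triangles of Grm3 in Rarb/Drd2 and of Neto2 in Rarb/Drd1 lie between the limits. Grik1, Grin3a and Grm8 lie right of the upper limit in Rarb/Drd2 alone.

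The other calls between libraries rested on few nuclei or few UMIs. In Tcf7l2/Slc17a6 nuclei Neto1 stood at 116 and 68.2 CPM (0.590, 95% 0.444 to 0.781) and Neto2 at 165 and 96.2 CPM (0.583, 95% 0.460 to 0.737), where 4.62% of all genes were called lower and 5.07% higher. The summed astrocyte markers of these nuclei stood at 34.9 and 156 CPM, and their part was not tested. In Skor2/Slc17a6 nuclei Grik3 (1.71, 95% 0.998 to 2.97, 25 and 36 UMIs) and Neto1 (2.88, 95% 1.70 to 5.05, 21 and 51 UMIs) were called higher, where 4.94% of all genes were, and 0 lower, where 6.23% were. In Lhx6/Sox6 nuclei Grm4 was called lower at 0.660 (95% 0.387 to 1.09), where 3.31% of all genes were (2.98% were higher), from 55 and 23 UMIs. The counting intervals of Grik3 in Skor2/Slc17a6 and of Grm4 in Lhx6/Sox6 include 1.

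Genes that work with these receptors were read in the same way. Of 20 other genes for delivery and clustering of AMPA receptors, 5 of 140 gene-type pairs were called higher and 8 lower. Over all genes, 1.54% of gene-type pairs were called higher and 3.9% lower. Gsg1l, an auxiliary subunit that slows recovery of the channel, was higher in Rarb/Drd2, and Cnih3, a cornichon that promotes export from the endoplasmic reticulum, was higher in Rarb/Drd1. Between libraries 2 of the 20 were called higher, where 7.67% of all genes were, and 1 lower, where 3.36% were. The neuronal pentraxins Nptx2 and Nptx1, which gather AMPA receptors at synapses, stood at 1.27 and 3.84 CPM (3.02) and at 6.85 and 11.9 CPM (1.73). Gsg1l stood at 58.8 and 36.9 CPM (0.627), and Cnih3 at a ratio of 0.758. With equal weight of types Nptx2 was at 1.78, Nptx1 at 1.15 and Gsg1l at 0.730.

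Of 27 genes for the postsynaptic scaffold and its signalling, 25 had enough UMIs in the types. Of their 175 gene-type pairs, 4 were called higher, where 1.54% of all gene-type pairs were, and 6 lower, where 3.9% were. All 4 higher calls were Homer1, which links Grm5 to calcium stores, and Dlgap2, a partner of PSD-95, in the 2 Rarb types. In US+, 2 of the 27 were called higher, where 7.67% of all genes were, and 0 lower, where 3.36% were. Those were Cbln1 (1.98) and Cbln2 (1.54), the secreted cerebellins that bind delta receptors, from 1.04 and 4.55 CPM in the US- library. With equal weight of types Cbln1 was at 1.53 and Cbln2 at 1.01, where its call was lost. The lowest ratios over all kept nuclei were those of Dlgap3 (0.716) and the kinase gene Camk2a (0.795).

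Of 14 genes for glutamate supply and uptake, 13 had enough UMIs in the types. Of their 91 gene-type pairs, 3 were called higher, where 1.54% of all gene-type pairs were, and 11 lower, where 3.9% were. Of these 14 calls, 7 were of Slc17a6, the vesicular transporter that defines 2 of the types, and so follow from the rule. Slc17a8, another vesicular transporter, was higher in Lhx8 nuclei. Between libraries 4 genes were called higher, where 7.67% of all genes were, and 0 lower, where 3.36% were. The glial transporters Slc1a3 (2.24) and Slc1a2 (1.50) and glutamine synthetase Glul (1.72) were among them, beside an astrocyte marker sum, in which Slc1a3 is counted, of 22.7 and 43.9 CPM. Slc17a7 (6.22, 95% 3.02 to 14.4) had only 0.0910 and 0.566 CPM. With equal weight of types Slc17a7 was at 0.507, on the other side of 1, and Slc1a3, Slc1a2 and Glul were at 3.05, 1.64 and 2.23. Slc1a3 differed most in Tcf7l2/Slc17a6 nuclei, at 10.2 and 85.5 CPM (12 and 104 UMIs). It was lower in US+ in Esr1 (6.65 and 5.19 CPM) and in Skor2/Slc17a6 (2 and 1 UMIs), and higher in every other type. The lowest ratios over all kept nuclei were those of Slc17a8 (0.70) and the amino acid transporter Slc38a2 (0.891).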

How the data were processed

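Each sample was 1 droplet library (10x Genomics 3′ v3.1) of sorted nuclei pooled from 4 mice. The authors aligned and counted reads with Cell Ranger 6.1.1 against mm10, normalized read depth to the library with the lowest saturation, and deposited UMI counts per gene and barcode. The paper states default parameters for Cell Ranger, but whether intronic reads were counted is not given in the sources used here. These counts were used as deposited.

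Nuclei with 200 to 7500 genes, at most 5% mitochondrial UMIs (the limits of the study) and at least 2000 UMIs were kept. No doublet caller was run. A type required at least 1 UMI of each marker (Esr1 at least 3), and nuclei of several types were left out. UMIs were summed per type and library and divided by all UMIs of those nuclei (CPM). Type calls required 50 UMIs in typed nuclei of each library, library calls 50 UMIs over both. With 1 library per group no p-value was computed. Intervals cover counting error only, and a count of 0 was bounded by 3 counts. The members, lists and rules were chosen with earlier results of these data known. Values are given in every type for the 10 members with the largest ratio between types and for up to 4 at each end between libraries, and for 2 genes at each end of a list. Settings varied were the marker rule, UMI, mitochondrial and count limits, the scaling (including TMM, edgeR 4.0.16, R 4.3.3), the reference of a type and the weight of types. Python 3.11.15 with numpy 2.4.6, pandas 2.3.3 and scipy 1.17.1 was used, and the scripts were tested on simulated data. Gene overlaps and sequences came from GENCODE M21 (GRCm38).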

Additional observations from a re-analysis of the deposited data

Results flagged for a closer look

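Neto1 differed between the libraries in opposite directions in the 2 types marked by Slc17a6. In Skor2/Slc17a6 nuclei its CPM ratio of US+ to US- was 2.88 (95% 1.70 to 5.05), from 21 UMIs in 47 nuclei and 51 UMIs in 39 nuclei. In Tcf7l2/Slc17a6 nuclei it was 0.590 (95% 0.444 to 0.781), from 136 and 83 UMIs in 124 nuclei of each library. The Skor2/Slc17a6 call was lost with at least 2 UMIs of each marker, which left 10 and 14 nuclei. The summed astrocyte markers of the Tcf7l2/Slc17a6 nuclei stood at 34.9 and 156 CPM, and their part was not tested. Each type is 1 library per group, and the difference between the types was not tested.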

How the results depend on the processing

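No paired analysis was possible because each group is 1 library and the labels carry no replicate number. Leaving out a library would leave a group empty. Of 31 members and 9 alternatives over all kept nuclei, 181 of 279 ratios between libraries moved by less than their counting interval, and none changed a called value to the other side of 1.

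Of pairs called higher than the other types (6), TMM scaling gave 10. Of pairs called lower (11), keeping nuclei of several types in each gave 5, of which 3 were among the 11, and giving each nucleus equal weight (mean UMIs per 10000) gave 17, with all 11 kept. TMM scaling gave 13 lower pairs, of which 8 were among the 11. Those lost were Grin2d in Rarb/Drd1 and Grin3a and Grm8 in Rarb/Drd2. Members called higher in US+ over all kept nuclei (0) became 1, Grin2c, without the 5% of nuclei with most UMIs and with the mean UMIs per 10000. Pairs called higher in US+ within a type (6) became 10 at a limit of 10 UMIs per gene and 3, all in Rarb/Drd2, at 200 UMIs. The remaining counts stayed within 1.5 times the main count. The ratio of Grik3 in Skor2/Slc17a6 nuclei crossed 1, to 0.663 with at least 2 UMIs of each marker and to 0.890 without the 5% of nuclei with most UMIs. The cause was not tested. Depth limits Grin2c, Grin3b and Grm2 in every type and all members in Skor2/Slc17a6, the smallest type.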
